A study of Mus musculus with 9 samples.

Results

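The 6 genes described here are markers of the cardiac conduction system. Shox2, Isl1, Cpne5, Vsnl1 and Smoc2 mark the sinus node, and Cntn2 marks the Purkinje fibres. They were taken by symbol, with every probe set annotated to 1 of these symbols only, which gave 13 probe sets of 34945 and 6 genes of 18193. RNA came from mouse hearts at 2 months of age on a C57BL/6 background, with 3 arrays in each of 3 groups. The mutant right atria had the genotype Myh6-cre; COUP-TFIIflox/flox, so that Cre under the Myh6 promoter removes the nuclear receptor COUP-TFII (Nr2f2) in cardiomyocytes and not in other cells. The control right atria and the control ventricles were COUP-TFIIflox/flox without Cre, so all groups carry the floxed alleles, and Cre and the deletion cannot be told apart. The labels call the replicates biological. Whether the sinus node lay within the dissected atria is not given in the sources used here.

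The sinus node is the pacemaker at the junction of the superior caval vein and the right atrium. Its cells keep a slow, spontaneously active programme under the transcription factors Shox2 and Isl1, and Shox2 acts there against the working muscle factor Nkx2-5. The Purkinje fibres are the fast end branches of the ventricular conduction system, and both systems make up a small part of the tissue around them. Cpne5 encodes a copine, a calcium-dependent phospholipid-binding protein, Vsnl1 a calcium sensor of the visinin family, Smoc2 a secreted calcium-binding matrix protein, and Cntn2 contactin 2, a cell adhesion protein anchored in the membrane.

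Because Cpne5 and Vsnl1 were low together in the mutant atria while Cntn2 was high, the 250 bases before their RefSeq starts (build GRCm38.p6, all on the minus strand, written 5′ to 3′ along the gene) are shown. They lie at chr17:29237791-29238040 for Cpne5, chr12:11436579-11436828 for the first start of Vsnl1 and chr1:132542941-132543190 for Cntn2, whose window precedes an internal start and lies within the annotated span of the gene. Capitals would mark AGGTCA on either strand, the hexamer that nuclear receptors of the COUP-TF class bind.
Cpne5: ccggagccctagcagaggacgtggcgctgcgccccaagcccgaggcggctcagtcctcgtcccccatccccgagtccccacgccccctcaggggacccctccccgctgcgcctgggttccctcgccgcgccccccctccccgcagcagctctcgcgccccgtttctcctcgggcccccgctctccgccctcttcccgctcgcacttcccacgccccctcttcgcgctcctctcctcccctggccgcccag
Vsnl1: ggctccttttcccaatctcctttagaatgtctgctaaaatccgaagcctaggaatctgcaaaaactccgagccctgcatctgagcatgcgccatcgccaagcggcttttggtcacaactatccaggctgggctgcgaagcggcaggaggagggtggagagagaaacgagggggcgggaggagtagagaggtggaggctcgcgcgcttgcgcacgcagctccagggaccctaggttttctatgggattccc
Cntn2: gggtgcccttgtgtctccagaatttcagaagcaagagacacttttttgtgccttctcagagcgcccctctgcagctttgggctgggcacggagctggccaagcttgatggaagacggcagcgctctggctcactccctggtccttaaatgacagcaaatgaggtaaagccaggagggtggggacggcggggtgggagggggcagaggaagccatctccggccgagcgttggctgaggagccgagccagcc
The G and C content was 76.4% for Cpne5, 58% for Vsnl1 and 61.2% for Cntn2. AGGTCA was found in 14% of 32851 promoter windows of this length, the T-box sequence AGGTGT in 11.8% and the homeobox core TAATTA in 4.8%, on either strand. These letters were not in the 3 windows above, nor in those of Shox2, Isl1 and the second start of Vsnl1.

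Array medians ran from 80.9 to 83.4 on the linear scale, and precision is limited by having 3 arrays a group. The control tissues carried their defining markers, and the summed level of both muscle lists was high in the mutant atria. The summed level of 7 atrial muscle genes (log2 of the summed intensity) ran from 17.11 to 17.14 for control atria, 16.11 to 16.61 for mutants and 12.70 to 13.27 for ventricles. That of 5 ventricular muscle genes ran from 12.32 to 12.75 for control atria, 15.63 to 15.82 for mutants and 15.97 to 15.99 for ventricles. Bright genes weigh most in these sums. By gene, 3 of the 7 atrial genes were lower in mutant than in control atria and 4 were not called (median -1.18). Of the 5 ventricular genes 3 were higher, 1 was lower and 1 was not called (median 0.99). Of all genes 6.92% were higher and 8.99% lower. Of the 6 probe sets of Nr2f2, 4 fell in the mutant atria, by between 0.74 and 1.29 on the log2 scale, with the floxed exons not given in the sources used here. The control atria stood apart in 7 hepatocyte genes, whose summed log2 level was 13.92, 13.15 and 11.16 in control atria 1, 2 and 3 against 8.06 to 8.16 for mutants and 8.03 to 8.20 for ventricles. Mesothelial markers, the genes of the outer lining of the heart, were also highest there, with 9 genes summing to 13.01 to 13.30 there, 11.50 to 11.71 for mutants and 10.03 to 10.38 for ventricles. As a reading of RNA quality, the 3′ minus 5′ log2 difference for Gapdh was 0.345 to 0.364 for control atria, 0.214 to 0.304 for mutants and 0.153 to 0.227 for ventricles. The part of these in any result was not tested beyond the hepatocyte covariate given with the results. Hepatocyte signal was high in the control atria alone, so that covariate and the control atrium group can hardly be told apart. A call lost with it therefore does not decide the part of hepatocytes.

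**Figure D1:**
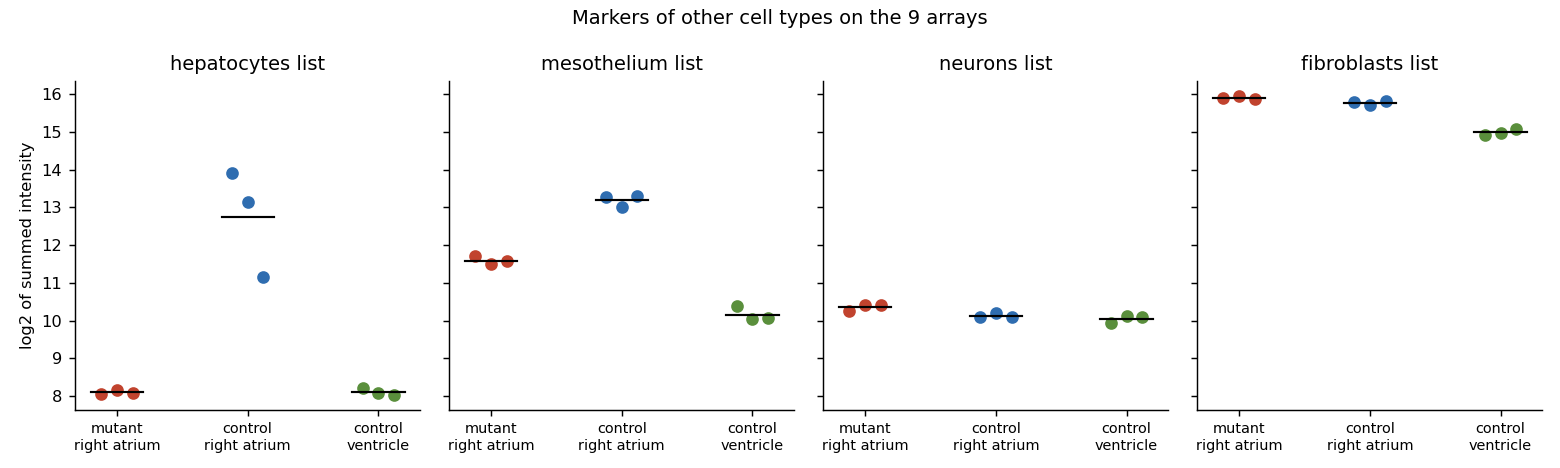
Summed intensity (log2) of marker lists of 4 other cell types, with 1 point per array and a line at the mean of 3 arrays for each tissue group. The hepatocyte and mesothelium lists are highest in the 3 control atria, and the hepatocyte list spreads there from 11.16 to 13.92.

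In the mutant atria Cpne5 and Vsnl1 fell towards their ventricular levels, and Cntn2 rose above both control tissues on its 2 brightest probe sets. Shox2, Smoc2 and Isl1 did not pass the test. Of the 13 probe sets, 2 rose and 3 fell in mutant against control atria at an adjusted p of 0.05 by limma, or 38.5%, where 13.9% of all probe sets were called (5.86% higher and 8.05% lower). The arrays of these groups did not overlap for 9 of the 13, where this held for 34.3% of all. Counted by the brightest probe set of each gene, 1 of 6 genes rose and 2 fell, where 15.9% of all genes were called (6.92% higher and 8.99% lower). The median difference was -0.071 over the 13 probe sets and 0.019 over all probe sets. With the mean hepatocyte level as a covariate none of the 13 passed (3 had an unadjusted p under 0.05), and 88 of all 34945 probe sets did. Without 1 array the count was between 4 and 6. The arrays are of whole tissue, so fewer cells of a type and less RNA per cell cannot be told apart.

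**Figure D2:**
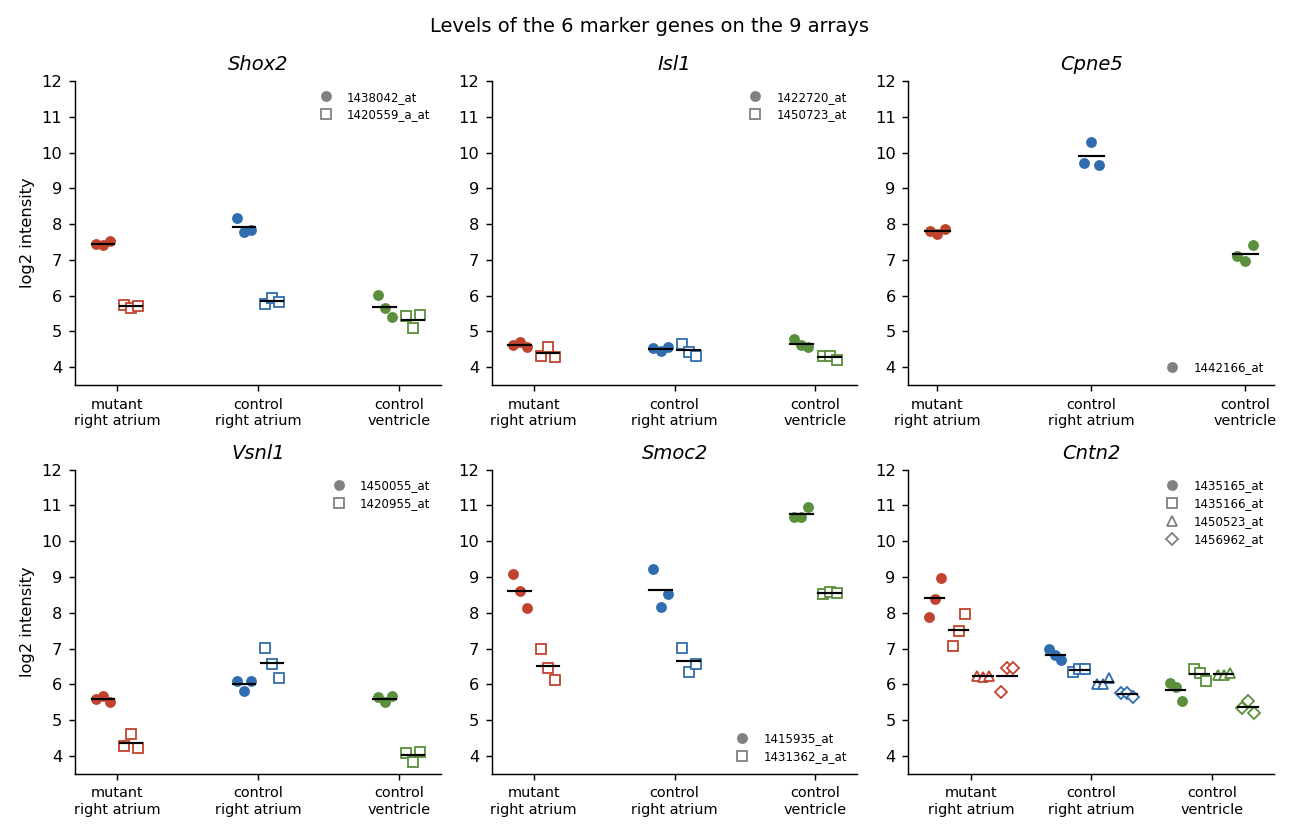
Log2 intensity of the 13 probe sets of the 6 genes on the 9 arrays, with 1 point per array and a line at the mean of each group of 3. Filled points are the brightest probe set of a gene and open points the others. Cpne5 and both probe sets of Vsnl1 are highest in the 3 control atria, the filled Cntn2 points are highest in the mutants, and Smoc2 is highest in the ventricles.

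Cpne5 had the largest difference between the control chambers among the 13 probe sets. Its single probe set gave log2 levels of 7.81, 7.72 and 7.87 for the mutants, 9.72, 10.31 and 9.66 for control atria and 7.12, 6.97 and 7.42 for ventricles. Each mutant array lay below each control atrium and above each ventricle. Means were 7.80 ± 0.07 (SD, n = 3) for mutants, 9.89 ± 0.36 for control atria and 7.17 ± 0.23 for ventricles. Cpne5 fell 4.27-fold from control to mutant atria (log2 difference -2.09 ± 0.17 SE, adjusted p = 5.72e-05). The ventricle was 6.61-fold below the control atrium (-2.72 ± 0.17, adjusted p = 1.74e-06). On the log2 scale the mutant atria had thus moved 76.9% of the way from the control atrium to the ventricle, with 74.5% to 79.8% on single arrays. Mutant atria were still 1.55-fold above the ventricles (0.63 ± 0.17, adjusted p = 0.0201), a call that was lost without mutant atrium 1 (adjusted p = 0.0512), mutant atrium 3 (0.0639), ventricle 1 (0.0595) or ventricle 2 (0.0712).

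Vsnl1 had 2 probe sets, both annotated to the same RefSeq transcript, which moved the same way by unequal amounts. Probe set 1420955_at gave 4.27, 4.62 and 4.22 in mutant atria, 7.02, 6.56 and 6.18 in control atria and 4.09, 3.83 and 4.12 in ventricles. The mutant arrays lay far below every control atrium and just above every ventricle. Mutant and ventricle readings were under 5.11, the first quartile of all probe set means, so the size of the fall is limited by dim signal. Vsnl1 fell 4.65-fold on it (4.37 ± 0.22 against 6.59 ± 0.42, a difference of -2.22 ± 0.19, adjusted p = 8.88e-05). The ventricle mean was 4.01 ± 0.16, with a mutant minus ventricle difference of 0.35 (95% interval -0.073 to 0.78, adjusted p = 0.201).

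Probe set 1450055_at read the same pattern in a narrow range. It was the brighter of the pair in the mean over the 9 arrays (5.73 against 4.99), but the dimmer in control atria (6.00 against 6.59). It gave 5.60, 5.68 and 5.51 in mutant atria, 6.09, 5.81 and 6.09 in control atria and 5.63, 5.51 and 5.67 in ventricles. It fell 1.32-fold in the mutants (-0.40 ± 0.09, adjusted p = 0.0187), a call lost without mutant atrium 3 (adjusted p = 0.0704), control atrium 1 (0.0688) or control atrium 3 (0.0533). Both Vsnl1 probe sets and Cpne5 were highest in control atria. Mutant atrium and ventricle were not called apart on either Vsnl1 probe set.

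The hepatocyte and mesothelium lists had the same order between the atria as Cpne5 and Vsnl1. In control atrium 3, which had the least hepatocyte signal, Cpne5 stood at 9.66 and Vsnl1 (1420955_at) at 6.18, and the highest mutant values were 7.87 and 4.62. Over control atria 1, 2 and 3 that Vsnl1 probe set had the same order (7.02, 6.56 and 6.18) as the hepatocyte level (13.92, 13.15 and 11.16), while Cpne5 was highest in control atrium 2. With the hepatocyte covariate Cpne5 differed between mutant and control atria by -1.79 (adjusted p = 0.224) and this Vsnl1 probe set by -1.07 (adjusted p = 0.318). The covariate raised the median SE over all probe sets from 0.0912 to 0.230. Both still passed between ventricle and control atrium with it, at -2.42 for Cpne5 (adjusted p = 0.0201) and -1.45 for Vsnl1 (adjusted p = 0.0393). The part of mesothelial cells was not tested.

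Shox2, the homeobox factor that keeps the sinus node programme, lay between the control chambers in the mutants. Probe set 1438042_at gave 7.44, 7.41 and 7.52 in mutant atria, 8.18, 7.79 and 7.83 in control atria and 6.02, 5.65 and 5.41 in ventricles. The 3 groups did not overlap, with the mutants between the control tissues and nearer to the atria. Means were 7.46 ± 0.05 for mutants and 7.93 ± 0.22 for control atria, a difference of -0.48 (95% interval -0.81 to -0.14, adjusted p = 0.0635) that missed the threshold. It covered 21.3% of the chamber difference, against 76.9% for Cpne5. That call was near the threshold: adjusted p was 0.0286 without ventricle 1 and 0.0411 without ventricle 3, and 0.0438 with the replicate block. It was also under the threshold with only the compared groups (0.0335), array weights (0.0471), a pseudocount of 16 (0.0477) and without the dimmest 40% (0.0497), while adjusted p was 0.203 without control atrium 1 and 0.994 with the hepatocyte covariate.

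The chamber difference of Shox2 itself was clear. The ventricle was 4.73-fold below the control atrium on 1438042_at (-2.24 ± 0.15, adjusted p = 2.86e-06), and the mutant atria were 3.40-fold above the ventricle (1.76 ± 0.15, adjusted p = 2.81e-05). The second probe set, 1420559_a_at, was dimmer and had the same order, with 5.70 ± 0.05 in mutant atria, 5.84 ± 0.10 in control atria and 5.32 ± 0.21 in ventricles. Its difference was -0.13 ± 0.10 between mutant and control atria (adjusted p = 0.419) and 0.38 ± 0.10 between mutant atria and ventricles (adjusted p = 0.0206). The latter call was lost without mutant atrium 1 (adjusted p = 0.0599) or mutant atrium 3 (0.0612).

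Isl1, a LIM homeobox factor of cardiac progenitors and of the node, was not distinguished from dim signal. Its probe sets had means of 4.60 and 4.38 over the 9 arrays, which placed them at percentile 16.7 and 13.1 of all probe sets. Values ran from 4.46 to 4.80 on 1422720_at and from 4.21 to 4.64 on 1450723_at over all groups. None of its 6 tests by limma passed, also before adjustment, where the lowest p was 0.0975. The intervals allow a mutant minus control atrium difference of -0.064 to 0.29 on 1422720_at and of -0.30 to 0.16 on 1450723_at. At this signal a small change of Isl1 in a few cells was not detectable.

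Smoc2, although listed as a node marker, was highest in the ventricles. Probe set 1415935_at gave 9.07, 8.62 and 8.13 in mutant atria, 9.22, 8.15 and 8.52 in control atria and 10.68, 10.67 and 10.97 in ventricles. Both atrial groups overlapped fully, and every ventricle lay above every atrium. The ventricle was 4.42-fold above the control atrium (2.14 ± 0.28, adjusted p = 0.000203) and 4.49-fold above the mutant atrium (mutant minus ventricle -2.17 ± 0.28, adjusted p = 0.000335). The mutant minus control atrium difference was -0.022, with a 95% interval of -0.64 to 0.60.

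The second Smoc2 probe set, 1431362_a_at, gave 6.51 ± 0.44 in mutant atria, 6.64 ± 0.34 in control atria and 8.55 ± 0.03 in ventricles. The ventricle was 3.73-fold above the control atrium on it (1.90 ± 0.21, adjusted p = 8.00e-05). With the hepatocyte covariate the chamber differences of Smoc2 were larger, at 2.77 and 2.32, and missed the threshold (adjusted p = 0.0699 and 0.0546). Of 10 fibroblast markers 8 were lower and 1 higher in the ventricle than in the control atrium, where 23.1% of all genes were lower and 28.2% higher. Their summed log2 level was 14.92 to 15.06 in ventricles against 15.70 to 15.82 in control atria. Their part in the Smoc2 values was not tested.

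Cntn2, the Purkinje marker, was the member that rose, on the probe sets that read it brightest. Probe set 1435165_at gave 7.87, 8.37 and 8.97 in mutant atria, 6.99, 6.83 and 6.69 in control atria and 6.04, 5.91 and 5.53 in ventricles. The 3 groups did not overlap, and the mutants spread over more than 1 log2 unit. Cntn2 was 2.97-fold higher in mutant than in control atria (1.57 ± 0.24, adjusted p = 0.00244) and 5.96-fold higher than in ventricles (2.58 ± 0.24, adjusted p = 4.62e-05). The ventricle was 2.01-fold below the control atrium (-1.004 ± 0.24, adjusted p = 0.00695) on this probe set. Averaging the 4 Cntn2 probe sets ended that chamber call (-0.32, adjusted p = 0.0891), and so did the hepatocyte covariate (-0.57, adjusted p = 0.740). In the average the mutants differed by 0.84 from control atria and by 1.16 from ventricles, and both calls held.

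Probe set 1435166_at, annotated to the same accession, gave 7.06, 7.49 and 7.97 in mutant atria, 6.34, 6.42 and 6.44 in control atria and 6.43, 6.32 and 6.09 in ventricles. Here the mutants again lay above both control tissues, which overlapped. It rose 2.15-fold against control atria (1.11 ± 0.19, adjusted p = 0.00440) and the mutants were 2.34-fold above ventricles (1.23 ± 0.19, adjusted p = 0.000970). The ventricle did not differ beyond the spread from the control atrium on it (-0.12, 95% interval -0.54 to 0.30, adjusted p = 0.607).

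The other 2 Cntn2 probe sets varied less. On 1456962_at the mutant atria stood at 6.24 ± 0.39, the control atria at 5.72 ± 0.07 and the ventricles at 5.36 ± 0.17. The mutants were above the ventricles there (0.88 ± 0.17, adjusted p = 0.00353), and the difference from control atria missed the threshold (0.52 ± 0.17, adjusted p = 0.0695). Without mutant atrium 1, whose value was 5.79, that difference was 0.74 (adjusted p = 0.00274). On 1450523_at all values lay between 6.01 and 6.32, with a mutant minus control atrium difference of 0.16 ± 0.07 (adjusted p = 0.146). There each mutant array lay below each ventricle, unlike on the brighter probe sets (mutant minus ventricle -0.060 ± 0.07, adjusted p = 0.535). On that probe set the ventricle was 0.22 ± 0.07 above the control atrium (adjusted p = 0.0216), the opposite order to 1435165_at, a call lost without control atrium 1 (adjusted p = 0.0692), control atrium 2 (0.0717) or ventricle 3 (0.0593), and with the hepatocyte covariate the difference was -0.024.

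Contactin 2 is also made by neurons, so neuronal markers are given beside it. Of 13 measured neuronal genes, 1 passed in mutant against control atria, where 15.9% of all genes were called. It was Uchl1, a ubiquitin hydrolase abundant in neurons, which rose by 1.88 ± 0.19 (adjusted p = 0.000199). The summed log2 level of the list was 10.26 to 10.41 in mutant atria, 10.09 to 10.19 in control atria and 9.94 to 10.11 in ventricles, and 7 of the 13 genes lay below the first quartile of all probe sets in each group. The median mutant minus control atrium difference of the 13 was 0.032, against 0.026 over all genes, so the neuronal list as a whole did not rise. The summed log2 level of 5 genes of Schwann cells, the sheath cells of nerves, went the other way from the neuronal sum between the atria. It was 10.26 to 10.53 in mutant atria, 10.76 to 10.78 in control atria and 9.64 to 9.90 in ventricles. Bright genes weigh most in such a sum. In mutant against control atria 1 of these 5 genes was lower and 4 were not called, where 8.99% of all genes were lower. The median difference of the 5 was 0.095, against 0.026 over all genes, so the Schwann cell list as a whole did not fall. The part of these cells in the rise of Cntn2 was not tested. With the hepatocyte covariate the difference between mutant and control atria was 2.02 on 1435165_at (adjusted p = 0.343) and 1.02 on 1435166_at (adjusted p = 0.602). The mutant minus ventricle call held for both under each alternative run, with a highest adjusted p of 0.000657 and 0.00576.

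**Figure D3:**
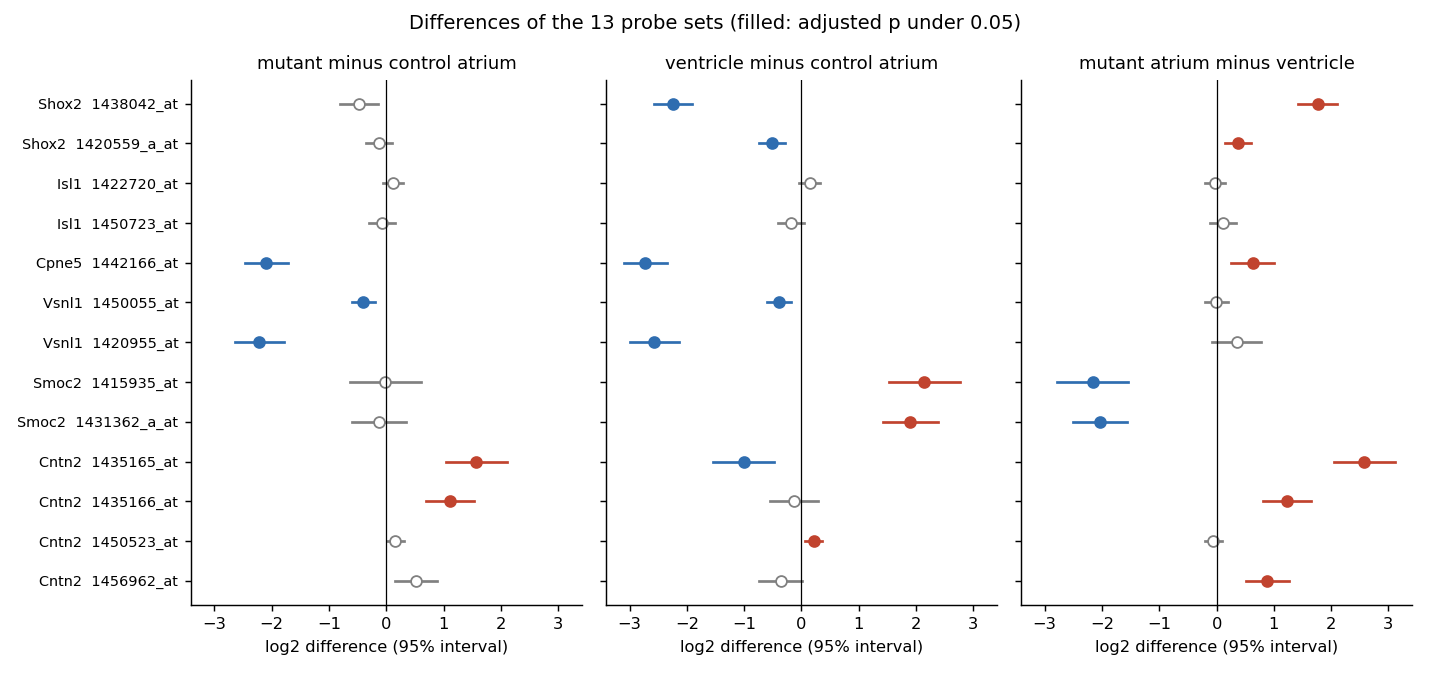
Log2 differences of the 13 probe sets (points) with 95% intervals (lines) in the 3 comparisons from the limma model, filled where the adjusted p is under 0.05. Cpne5 and 1420955_at of Vsnl1 lie near -2 in mutant minus control atrium and below it in ventricle minus control atrium, while 1435165_at of Cntn2 lies at 1.57 and -1.004.

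Between the control chambers the markers split by direction. In ventricle against control atrium 3 of the 13 probe sets were higher and 6 lower, or 69.2%, where 47.2% of all probe sets were called (25.7% higher and 21.5% lower). Arrays did not overlap for 11 of the 13, against 55.6% of all. The higher ones were both of Smoc2 and 1450523_at of Cntn2, and the lower ones those of Shox2, Cpne5 and Vsnl1 and 1435165_at of Cntn2. With the hepatocyte covariate 3 of the 13 passed, where 1625 of all 34945 probe sets did. Of the 13, 5 had an unadjusted p under 0.05. In mutant atrium against ventricle 6 were higher and 2 lower, or 61.5%, where 27.5% of all probe sets were called (13.4% higher and 14.1% lower). Arrays did not overlap for 10 of the 13, against 43.3% of all. Shox2, Cpne5 and Cntn2 made up the higher ones and Smoc2 the lower ones. These comparisons share samples with the first, so their values are not independent of it.

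Other sinus node genes moved in both directions. Of 15 listed genes 12 were measured, and Hcn4, the main pacemaker channel, is not analysed here. In mutant against control atria 5 rose, 3 fell and 4 did not pass, where 15.9% of all genes were called, with a median of 0.24 against 0.03 over all genes. Gjc1, the connexin of slowly conducting nodal tissue, rose by 1.21 ± 0.08 (adjusted p = 2.15e-05), and Cacna1g, a T-type calcium channel of pacemaker cells, by 0.70 ± 0.12 (adjusted p = 0.00477). Igfbp5, which binds insulin-like growth factors, fell by 1.12 ± 0.10 (adjusted p = 0.000126), and Cacna1d, the L-type channel of pacemaking, by 0.77 ± 0.10 (adjusted p = 0.00133). Tbx3, the T-box repressor that keeps working muscle genes off in the node, rose by 0.91 ± 0.21 (adjusted p = 0.0200), and is named here after its values were seen.

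In ventricles against control atria 8 of these 12 genes were lower and 3 higher, where 51.3% of all genes were called (28.2% higher and 23.1% lower), with a median of -0.85. The calcium channel subunit Cacna2d2 differed by -5.10 ± 0.21, Cacna1d by -2.89 ± 0.10, Igfbp5 by -2.42 ± 0.10 and the G protein regulator Rgs6 by -1.48 ± 0.14 (log2 differences). Mutant atria exceeded ventricles in 9 of the 12 genes, where 31% of all genes were called (15.4% higher and 15.6% lower). Among these were Cacna2d2 (5.44 ± 0.21), Cacna1d (2.12 ± 0.10), Rgs6 (1.62 ± 0.14) and Igfbp5 (1.30 ± 0.10). Cacna2d2 and Rgs6 were not called between the atria, with mutant minus control differences of 0.35 ± 0.21 (adjusted p = 0.306) and 0.14 ± 0.14 (adjusted p = 0.542).

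In the Purkinje and ventricular conduction list, 11 of 12 genes were measured besides Cntn2. In mutant against control atria 6 rose and 2 fell, where 6.92% of all genes rose and 8.99% fell. The list median was 0.61. Earlier results of these data already named several of these genes, so the count is no independent support for the rise of Cntn2. Like Cntn2, the guidance cues Slit2 and Sema3a exceeded the ventricular level in the mutants, by 4.53 ± 0.14 and 3.02 ± 0.17. They were lower in ventricles than in control atria, by -0.42 ± 0.14 and -1.02 ± 0.17. Id2, an inhibitor of helix-loop-helix factors, was 2.75 ± 0.12 above the ventricle in the mutants and differed by -0.26 ± 0.12 from control atria (adjusted p = 0.198). Tbx5, a T-box factor of the atria and the conduction system, fell by 0.86 ± 0.09 and was 1.59 ± 0.09 above the ventricle. The homeobox factor Irx3 rose in the mutants to 11.66 against 8.20 in control atria and 10.48 in ventricles.

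**Figure D4:**
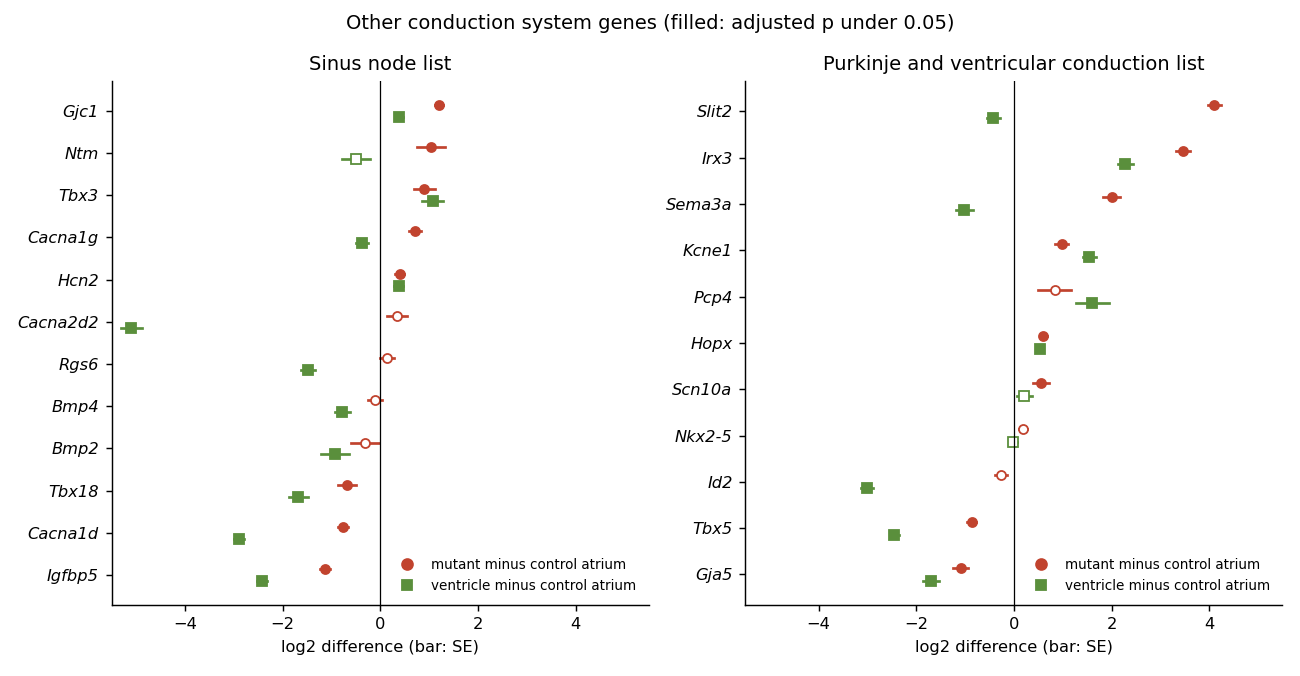
Log2 differences of the other listed conduction genes in mutant minus control atrium (red circles) and ventricle minus control atrium (green squares), with bars of 1 SE and filled where the adjusted p is under 0.05. Slit2 and Sema3a lie right of 0 in the mutants and left of 0 in the ventricle, while Cacna2d2 lies near 0 in the mutants and at -5.10 in the ventricle.

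A list of 9 genes was chosen as working muscle genes held down in the sinus node, and 7 of them were measured. Whether the node holds down each of them, Kcnj3 among them, was not tested. In mutant against control atria 1 of the 7 passed, where 15.9% of all genes were called. It was the small muscle protein gene Smpx, which fell by 0.33 ± 0.06 (adjusted p = 0.00885). The connexin Gja1 differed by -0.075 ± 0.078 (adjusted p = 0.564) and the calcium release channel Ryr2 by -0.19 ± 0.08 (adjusted p = 0.166). The potassium channel gene Kcnj3 differed by -0.35 ± 0.19 (adjusted p = 0.248). In ventricles 4 of the 7 were lower than in control atria, where 23.1% of all genes were, with Kcnj3 at -2.08 ± 0.19 and Nppa, the atrial natriuretic peptide, at -2.30 ± 0.13. Nppa read 15.07 for mutants and 15.10 for control atria, at the top of the intensity range, which limits the size of its difference.

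Relatives of the members were called at 2 of 8 copines, 2 of 10 calcium sensors, 1 of 7 SPARC family genes, 1 of 11 contactins and partners, and 3 of 14 relatives of Shox2 and Isl1 in mutant against control atria. These counts are to be read against 15.9% of all genes. The 3 calls of the last list include Nr2f2, the gene removed in the mutants, whose fall was set by the design. Of the other 8 copines, Cpne7 rose by 0.44 ± 0.08 and Cpne1 fell by 0.37 ± 0.07 in the mutants, both small beside the fall of Cpne5. Of 10 other neuronal calcium sensors 2 rose, Kcnip2 by 0.72 ± 0.12 and Hpca by 0.40 ± 0.10. Kcnip2, a subunit of the transient outward potassium channel, was 1.70 ± 0.12 higher in ventricles than in control atria, opposite to Vsnl1. Of the 7 relatives of Smoc2 in the SPARC family, 1 passed in the mutants, Spock2 (-1.13 ± 0.19). Smoc1, the nearest relative of Smoc2, had the opposite chamber pattern, with 7.30 in ventricles, 9.81 in control atria and 10.17 in mutant atria, and a ventricle minus control atrium difference of -2.50 ± 0.17 (adjusted p = 3.05e-06).

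Of 11 contactins and partners of Cntn2, 1 rose in the mutants, Cntnap4 (0.37 ± 0.07, adjusted p = 0.00735). In ventricles 6 of the 11 were higher than in control atria and 1 lower, where 28.2% and 23.1% of all genes were. Cntn5 was 3.42 ± 0.17 above control atria (adjusted p = 5.23e-07), and differed in the mutants by 0.56 ± 0.17 (adjusted p = 0.0618). Among 14 relatives and partners of Shox2 and Isl1, Prrx1, a homeobox factor of mesenchyme, rose by 1.19 ± 0.11 (adjusted p = 0.000110). Prrx2, at a dim level, fell by 0.56 ± 0.09. Nr2f2, which was in this list although it is the gene removed in the mutants, fell by 0.74 ± 0.15. Lmo4, a LIM-only partner, stood at 9.84 in mutant atria, 9.89 in control atria and 9.18 in ventricles.

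The genes most like each member over the 9 arrays were taken by Pearson correlation among 1571 genes with group means at least 1 log2 unit apart, as a description in which the 3 group levels weigh most. Closest to Cpne5 were Slc7a7 (r = 0.991), Krt7 (0.990) and Vdr (0.986), all highest in control atria, with 235 genes above 0.9. Krt7, an epithelial keratin, stood at 9.23 in control atria, 6.48 in mutant atria and 5.57 in ventricles. Closest to Shox2 were Npc2 (r = 0.995), Fkbp7 (0.994) and Dzip1 (0.993), with 508 genes above 0.9. Closest to Smoc2 were Dct (0.973), P2ry14 (0.964) and Ttll1 (0.953), with 70 genes above 0.9. Closest to Cntn2 were Calhm6 (0.976), the sodium leak channel gene Nalcn (0.967) and Tnfsf13b (0.967), with 65 genes above 0.9. For Vsnl1 (1450055_at) they were Lrp2 (0.957), Arfgef3 (0.956) and Gsg1 (0.947), and for Isl1, at its dim level, Ccl12 (0.868), Cxcl9 (0.865) and Clec10a (0.855). The number of genes above 0.9 was 18 for this Vsnl1 probe set and 0 for Isl1.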

How the data were processed

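RNA of 3 mutant right atria, 3 control right atria and 3 control ventricles was hybridised to Affymetrix 3′ arrays. The authors deposited linear intensity values, 1 a probe set, made with RMA (background correction, quantile normalisation, probe set summary), per the submitters' processing notes; the version is not given in the sources used here. RMA leaves dim probe sets with a floor and compresses bright ones. Their log2 was taken with no further scaling. Of 45101 probe sets, 64 control sets, 932 with several gene symbols and 9160 with no symbol were not used. The other 34945 were fitted with limma 3.58.1 in R 4.3.3 (a mean per group over 9 arrays, lmFit and eBayes, 6 residual and 3.83 prior degrees of freedom), 2-sided, with Benjamini-Hochberg adjustment over all probe sets at 0.05. A gene in a list is counted by its probe set of highest mean. Up to 4 list genes per comparison with the smallest p are named. Differences are given ± SE, levels ± SD, n = 3. The members and lists were chosen with earlier results of these data known. Promoters are from RefSeq (GRCm38.p6), which held 5 of the 6 genes. Procedures were tested on simulated data.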

Additional observations from a re-analysis of the deposited data

How the results depend on the processing

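The alternatives were the replicate block, 1 probe set per gene, the mean of all probe sets of a gene, a robust fit with a trend in intensity, quantile normalisation, median centring, dropping the dimmest 40%, a pseudocount of 16, array weights, fits of the compared groups alone, a hepatocyte covariate, an adjusted p of 0.01 and leaving out each array. Of 22 called differences, 9 kept their call and direction under every alternative run. With the replicate block 6, 9 and 8 of the 13 probe sets passed in mutant against control atrium, ventricle against control atrium and mutant atrium against ventricle, against 5, 9 and 8 without it, and the call it changed was that of Shox2 1438042_at. Same-numbered arrays deviated from their group means with correlations of -0.0957 to 0.111. The labels do not say whether the numbers pair samples, and with 3 arrays a group these values cannot decide it. The hepatocyte covariate moved the counts to 0 of 13 probe sets (0 of 6 genes) in the first comparison and 3 of 13 (2 of 6 genes) in the next. Over all 34945 probe sets 88 and 1625 passed with it, against 4861 and 16492 without it. The cause was not tested, and the median SE with the covariate was 0.230 against 0.0912. Small differences that changed sign were as follows. With the hepatocyte covariate, mutant against control atrium gave 0.35 for Isl1 1450723_at, 0.62 and 0.30 for Smoc2 and -0.089 for Cntn2 1450523_at, and ventricle against control atrium 0.23 for Isl1 1450723_at and -0.024 for Cntn2 1450523_at. Quantile normalisation gave 0.042 for Smoc2 1415935_at in mutant against control atrium, and 0.038 for Isl1 1422720_at and 0.018 for Vsnl1 1450055_at in mutant atrium against ventricle. The mean of all probe sets gave -0.023 for Isl1 in ventricle against control atrium, and 0.043 for Isl1 and 0.17 for Vsnl1 in mutant atrium against ventricle. It also gave -1.31 for Vsnl1 in mutant against control atrium, against -0.40 on its probe set of highest mean. For Cntn2 it gave -0.32 (adjusted p = 0.0891, call lost) in ventricle against control atrium, 0.84 against 1.57 in mutant against control atrium and 1.16 against 2.58 in mutant atrium against ventricle. Leaving out 1 array at a time gave, in mutant against control atrium, -0.16 to 0.015 for Isl1 1450723_at, -0.26 to 0.27 for Smoc2 1415935_at and -0.37 to 0.069 for Smoc2 1431362_a_at. In mutant atrium against ventricle it gave -0.076 to 0.040 for Isl1 1422720_at and -0.053 to 0.036 for Vsnl1 1450055_at. Dim signal limits what can be said of Isl1.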

Other observations

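The probe sets that are not the brightest of their gene were set against the same 1571 genes, a choice made after the values were seen. For Vsnl1 1420955_at the closest genes were Mal2 (r = 0.989), Clca3a2 (0.989) and Slc23a3 (0.987), with 178 genes above 0.9. Each of the 3 was highest in control atria, as Mal2 at 5.11 against 3.78 in mutant atria and 3.55 in ventricles. Both Smoc2 probe sets had the same 3 closest genes, Dct, P2ry14 and Ttll1. The 4 Cntn2 probe sets shared none of their 3 closest genes with each other, and 1450523_at was closest to Tmc7 (0.958), which was highest in ventricles.

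The mutant atria differed among themselves in 2 members. Cntn2 1435165_at ran from 7.87 in mutant atrium 1 to 8.97 in mutant atrium 3, while Smoc2 1415935_at ran from 9.07 to 8.13 in the same arrays. Over those arrays Cpne5 lay between 7.72 and 7.87 and Shox2 1438042_at between 7.41 and 7.52. The control atria spread as well. Smoc2 1415935_at had an SD of 0.54 there against 0.47 in mutants, and Cpne5 0.36 against 0.07. For Cntn2 1435165_at the SD was 0.15 in control atria against 0.55 in mutants.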
